A study of Mus musculus with 9 samples.

Results

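The genes described here were 38 genes of COPI and COPII vesicle traffic, measured in the ovaries of juvenile mice during the days around the initial formation of the follicular antrum, the fluid-filled cavity of the follicle. They were selected by gene symbol, each matched a single entry, and they were 38 of the 52025 genes listed in the tables. All 38 passed the filter on low values, a mean of more than 1 FPKM on any of the 3 days, which left 15495 genes for testing. FPKM is the number of mapped fragments per kilobase of transcript, scaled to the depth of the library, so levels of different genes may be set side by side on this scale. The members were divided by role into the COPII coat (11 genes), the COPI coat (9), ARF GTPases (3), cargo receptors (10), and Golgi matrix proteins and SNAREs (5).

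RNA-Seq covered ovaries of Kunming mice at postnatal day 14 (PD14), 15 (PD15) and 16 (PD16), with 3 libraries for each day. The labels list no treatment, transgene or deletion in any group, and the study speaks of 3 independent ovaries per day. The tissue label was ovary, whereas the source label was granulosa cells. All 11 oocyte markers checked passed the filter in these libraries, with summed levels between 1106 and 1617 FPKM, and the libraries were therefore treated as whole ovary. In such bulk samples, fewer cells of a type and less RNA per cell cannot be told apart.

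COPII vesicles carry newly made proteins from the endoplasmic reticulum (ER) to the Golgi apparatus. The GTPase Sar1 recruits the inner coat of Sec23 and Sec24, in which Sec24 binds the cargo, and Sec13 and Sec31 build the outer cage. COPI vesicles return ER proteins and receptors from the Golgi, through a coatomer complex that Arf1 recruits to the membrane. Granulosa cells and oocytes send hormones, matrix proteins and zona pellucida proteins along this route.

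From the tables, each library was estimated to hold between 20.4 and 28.7 M fragments. At this depth, the least covered value of a member was about 661 fragments, for Sec24a, so the counting error of a member's level was at most 3.89%. Among the cell type marker lists, the summed level of epithelium and oviduct markers (5 of 6 tested) ran from 51.2 to 52.2 FPKM at PD14. It ran from 42.1 to 46.8 at PD15 and from 36.4 to 39.8 at PD16, without overlap. Of the 5 tested, 4 had a lower and 1 a higher mean at PD16 than at PD14, and the same counts held against PD15. The 5 endothelium markers summed to 56.6 to 59.7 FPKM at PD14 and 50.9 to 53.2 at PD16. Oocyte markers were highest at PD15, at 1512 to 1617 FPKM. Blood and immune markers (5 of 6 tested) summed to 111.7 to 141.7 FPKM at PD14 and 59.2 to 77.8 at PD15, without overlap. At PD16 they summed to 76.0 to 124.8 FPKM. Of the 5 tested, 3 had a lower mean at PD15 than at PD14 (Hba-a1 at 33.7 after 87.4 FPKM). The other 2 had a higher one (Lyz2 at 14.0 after 8.91 FPKM). The 6 stroma markers summed to 538.3 to 630.0, 463.5 to 534.8 and 535.7 to 562.3 FPKM, with PD15 below both other days. All 5 smooth muscle markers had a higher mean at PD16 than at PD14, although their sums overlapped. The 7 theca and interstitial cell markers summed to 1752 to 2392 FPKM at PD14, 1267 to 1901 at PD15 and 1270 to 1750 at PD16. By this sum PD16 lay just below PD14 without overlap, but 2 of the 7 had a higher mean at PD16 and 5 a lower one. As a mean deviation from the 9-library mean, in log2(FPKM + 1), the list overlapped. PD16 replicate 1 (0.20) lay within the PD14 range (0.17 to 0.21). Sums of the 9 granulosa cell markers overlapped between days, at 2946 to 3591 FPKM at PD14 and 2886 to 3430 at PD16. By limma's adjusted p, single markers called from PD14 to PD16 were 3 of epithelium and oviduct and 1 of granulosa cells downward, and 1 each of granulosa cells, oocyte, blood and immune cells and smooth muscle upward. The oocyte call went against most of its list, in which 8 markers had a lower and 3 a higher mean at PD16 than at PD14 (median log2 change -0.23). No marker on the lists was at 0 in every library. Whether this shift in markers contributed to the changes below was not tested.

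The members were abundantly expressed. Their median level was 34.1 FPKM, compared with 7.10 FPKM over all genes tested, and 31 of the 38 lay above the upper quartile of those genes, 17.0 FPKM. Arf1, the GTPase that starts COPI coat assembly, had the highest level (216.9 FPKM, the mean of the 9 libraries). The p24 family receptor Tmed9 followed at 150.03 FPKM and Surf4, a receptor for soluble secretory cargo, at 88.0 FPKM. ARF GTPases had a median level of 78.1 FPKM and cargo receptors 55.2. The COPII coat had 29.1, the COPI coat 29.1, and Golgi matrix proteins and SNAREs 23.8. Sec24a was the lowest member at 3.43 FPKM, and Sec23b followed at 11.4 FPKM.

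**Figure D1:**
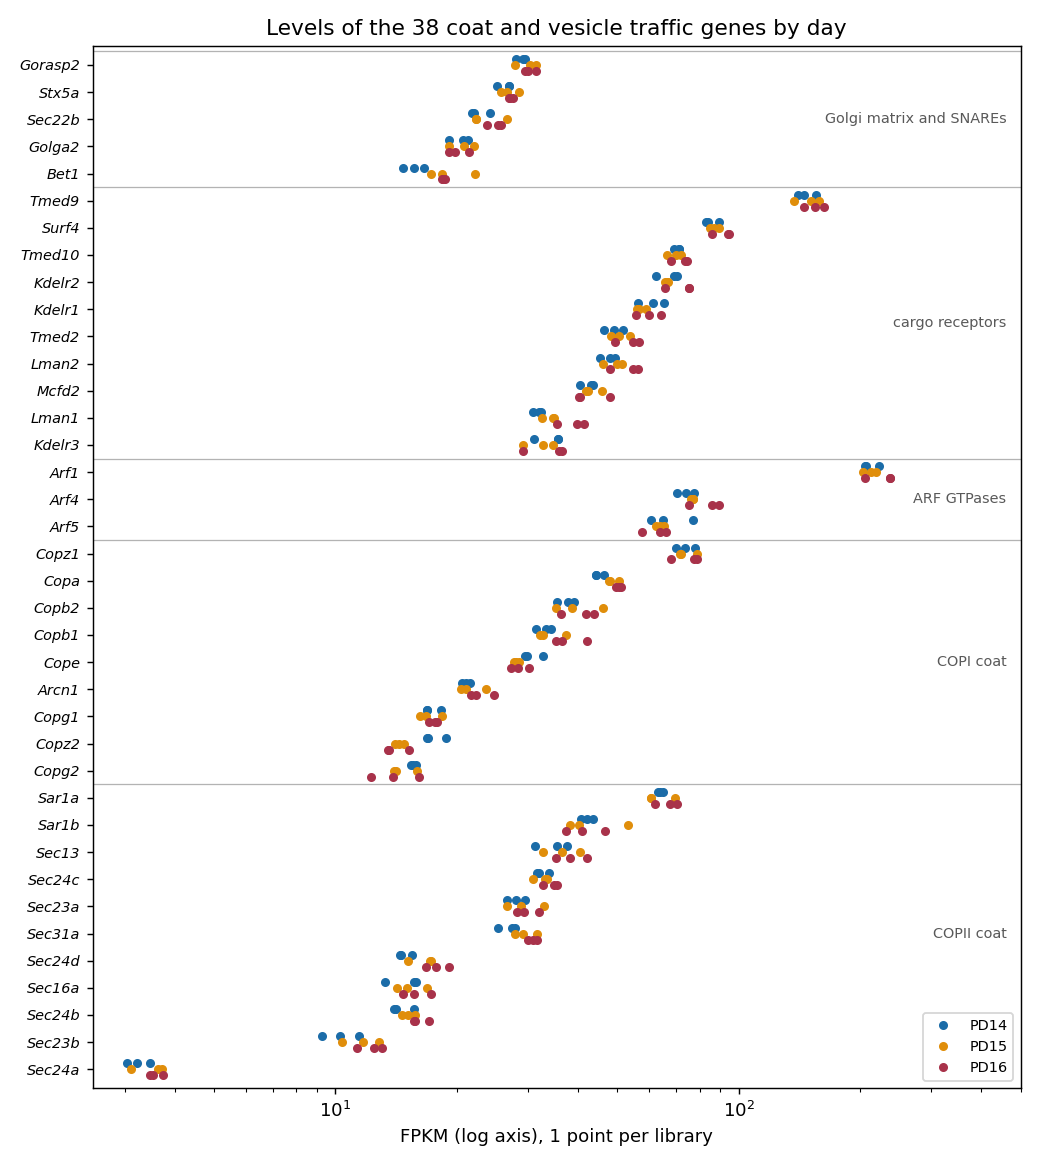
FPKM of each member in every library, on a log axis, with 1 point per library coloured by day and genes ordered by mean level within each role group. Arf1 and Tmed9 stand at the high end and Sec24a, at about 3.43 FPKM, at the low end, and for most genes the points of the 3 days overlap.

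Sec24a and Sar1b, both COPII coat genes, lie head to head on chromosome 11. In GENCODE M21, the start of Sec24a (chr11:51692264-51763634, minus strand, GRCm38) and that of Sar1b (chr11:51763687-51791925, plus strand) are 53 bases apart. The DNA around the Sar1b start is shown because both genes begin in it by that annotation. RefSeq places the promoter window of Sec24a elsewhere, at chr11:51756785-51757084, so the shared start rests on GENCODE alone. The printed window is that of Sar1b in RefSeq (GRCm38.p6, chr11:51763413-51763712, plus strand), and the capitals mark the 52 bases between both annotated starts.
Sar1b and Sec24a: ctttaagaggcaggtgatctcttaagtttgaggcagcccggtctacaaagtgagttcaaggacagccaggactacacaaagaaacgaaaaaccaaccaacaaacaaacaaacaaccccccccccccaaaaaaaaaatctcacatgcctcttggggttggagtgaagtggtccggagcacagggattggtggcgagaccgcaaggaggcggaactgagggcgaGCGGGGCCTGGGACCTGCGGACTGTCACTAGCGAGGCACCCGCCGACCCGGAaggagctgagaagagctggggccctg

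The levels of this pair lay far apart. Sar1b was at 42.5 FPKM and Sec24a at 3.43 FPKM as means of all 9 libraries. Neither gene differed between PD16 and PD14 beyond the spread between libraries. The log2 change was -0.02 for Sar1b (95% interval from -0.30 to 0.26) and 0.11 for Sec24a (from -0.06 to 0.28).

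Many coat genes are known targets of ER stress and secretory transcription factors, which bind the UPR element, spelled TGACGTGG (CCACGTCA on the other strand). This spelling was searched on both strands of the RefSeq promoters, from 250 bases before to 50 bases after each start site. It was found in 7 of the 34 members that had a promoter entry (20.6%), compared with 0.714% of all 27025 genes with a promoter and 1.01% of the 10021 genes tested with a promoter. The 7 genes were Sec23a, Sec24d, Copb1, Copb2, Arf1, Kdelr3 and Stx5a. Counted in every promoter window of these genes, 8 of 9 matches lay within 50 bases of the start site, with first bases from -30 to 39, compared with 37.9% of the 224 matches in all windows. The ninth was the Arf1 element seen from another annotated start of that gene, at -84. A match describes letters only, and binding was not measured. The sites are given on the strand on which the element reads (GRCm38.p6), with the element in capitals, because these 7 members share it.
Sec23a, chr12:59011988-59012027, minus strand: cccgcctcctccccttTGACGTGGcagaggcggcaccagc
Sec24d, chr3:123267454-123267493, plus strand: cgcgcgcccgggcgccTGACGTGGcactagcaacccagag
Copb1, chr7:114254685-114254724, plus strand: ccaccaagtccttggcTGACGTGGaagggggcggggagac
Copb2, chr9:98563708-98563747, minus strand: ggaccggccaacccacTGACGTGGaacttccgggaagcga
Arf1, chr11:59228223-59228262, minus strand: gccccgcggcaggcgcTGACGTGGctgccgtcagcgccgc
Kdelr3, chr15:79516362-79516401, minus strand: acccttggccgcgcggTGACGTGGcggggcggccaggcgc
Stx5a, chr19:8741417-8741456, minus strand: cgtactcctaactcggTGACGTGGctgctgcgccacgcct
Stx5a, chr19:8741447-8741473, plus strand: taggagtacgtctaggTGACGTGGcgg

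The full ER stress element was also searched on both strands, and it was in the promoter of 0 of the 34 members and of 0.137% of all genes. The palindromic cyclic AMP element (TGACGTCA) was in that of Cope alone among the members (2.94%). It was in 2.03% of all genes with a promoter and 3.56% of those tested. The promoters of Lman1, Arcn1, Tmed2 and Kdelr2 were not analysed here.

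Between PD14 and PD15, the members shifted little. Of the 38, 27 had a higher mean at PD15 and 11 a lower one, where 51.9% of all genes tested were higher, and the median log2 change was 0.04 beside 0.01 over all genes. With every library scaled to the same FPKM total, 25 were higher and 13 lower, with a median of 0.025 beside -0.0074 over all genes. None of the members passed an adjusted p of 0.05 by limma, and neither did most genes (0.678% were called, 0.336% higher and 0.342% lower). At an unadjusted p under 0.05 there were 3 members (Copz2, Bet1 and Copa), compared with 14.7% of all genes. The libraries of these days did not overlap for 3 members that were higher at PD15 (Copa, Lman1, Bet1), whereas 10.4% of all genes were higher without overlap. They did not overlap for 2 members that were lower (Copz2 and Cope), beside 10.2% of all genes.

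From PD14 to PD16, the direction was more uniform. The mean was higher at PD16 for 30 members and lower for 8, compared with 52.2% of all genes being higher, and the median log2 change was 0.09 beside 0.01 over all genes. Of the 38, 2 passed an adjusted p of 0.05 by limma, Lman1 upward and Copz2 downward, where 4.25% of all genes were called (2.36% higher and 1.89% lower). The libraries did not overlap for 9 members that were higher and 1 that was lower, beside 15% and 13.5% of all genes. At an unadjusted p under 0.05 there were 10 members, whereas 22.8% of all genes were under it. The 2 calls among 38 genes were thus near the share over all genes. When every library was scaled to the same FPKM total, 27 members were higher and 11 lower at PD16, with a median of 0.06 beside -0.01 over all genes, and none was called. The standard errors of the members' changes to PD16 ran from 0.0509 to 0.123, and a gene that missed the threshold is not thereby shown to be unchanged. The scaling to equal totals was added after the totals, from 308363 to 342803 FPKM, had been seen.

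Between PD15 and PD16, 31 members had a higher mean at PD16 and 7 a lower one, where 53.1% of all genes were higher. The median log2 change was 0.06. None passed an adjusted p of 0.05 by limma (0.729% of all genes were called, 0.432% higher and 0.297% lower), and only Lman1 was under an unadjusted p of 0.05, compared with 14.1% of all genes. Lman1 was also the only member whose libraries did not overlap, beside 9.85% of all genes that were higher and 9.73% that were lower without overlap. Over the 3 days at once, the limma F test called none of the members and 3.03% of all genes, and 6 members were under an unadjusted p of 0.05, compared with 22.3% of all genes. Comparisons with PD14 share the PD14 libraries, so their values are not independent of each other.

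**Figure D2:**
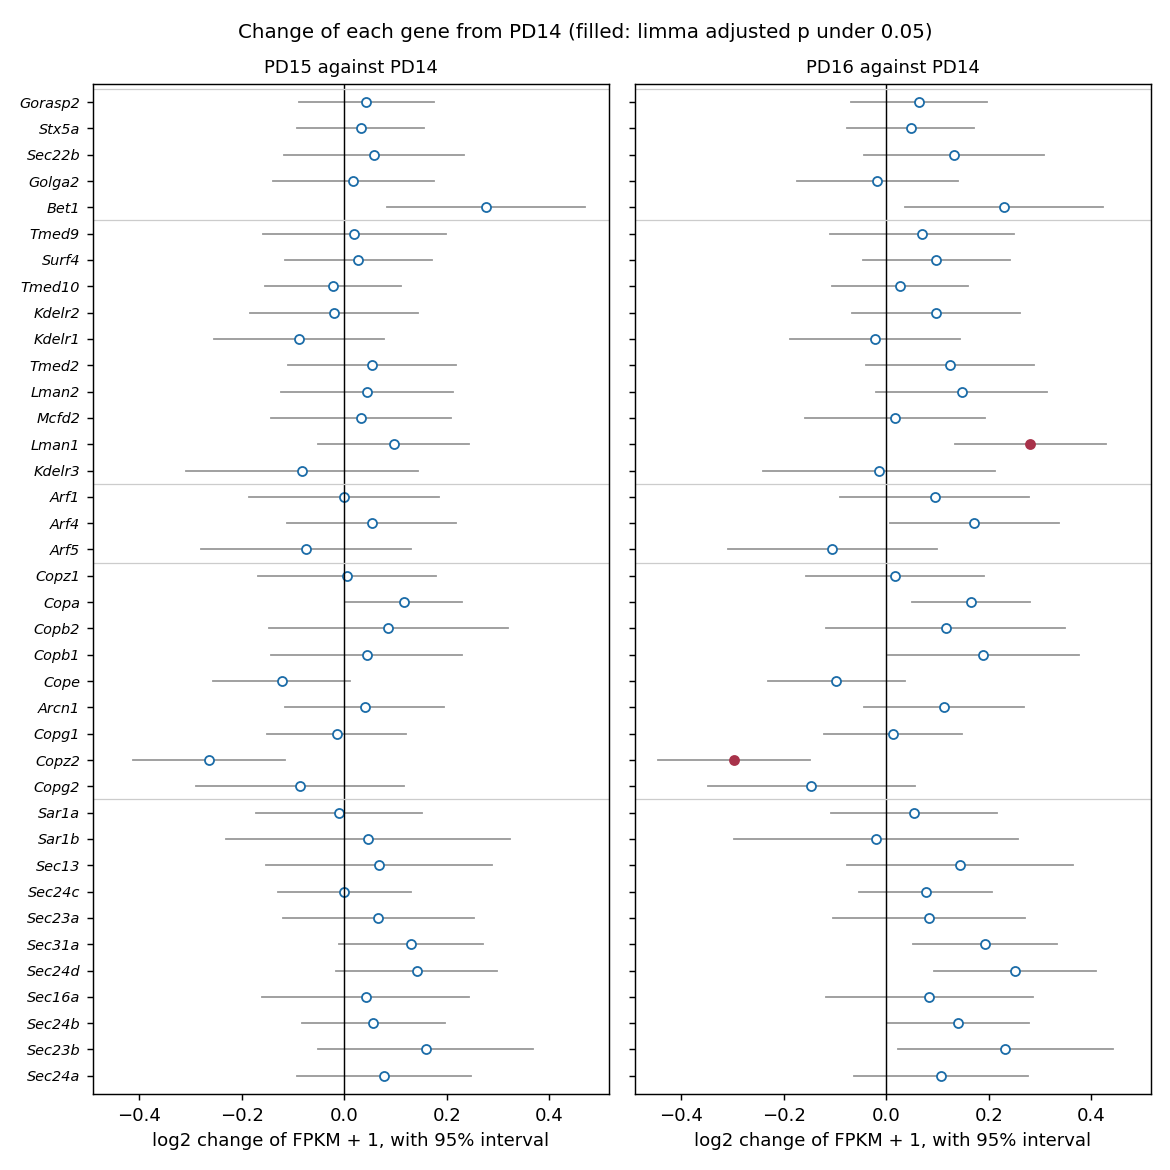
Change of each member in log2(FPKM + 1) from PD14 to PD15 (left) and from PD14 to PD16 (right), with the 95% interval from limma and genes in the order of the plot of levels. Filled points, Lman1 at 0.28 and Copz2 at -0.30 on the right, passed an adjusted p of 0.05, and most points on the right lie above 0.

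In the COPII coat, 10 of 11 genes had a higher mean at PD16 than at PD14, and their median log2 change was 0.11, although none passed the adjusted test. At PD15 the count was 9 of 11 and the median 0.07, which was 0.14 without PD15 replicate 2 and 0.041 without PD15 replicate 3. Sec24d, a cargo-binding subunit of the inner coat (chr3:123267455-123365641, plus strand), was at 15.5, 14.5 and 14.5 FPKM at PD14, at 17.3, 15.1 and 17.1 at PD15 and at 17.8, 19.1 and 16.7 at PD16. All PD16 libraries were above all PD14 libraries, and PD15 overlapped both days. The log2 change from PD14 to PD16 was 0.25 (SE 0.0700, limma adjusted p = 0.0752).

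Sec31a, which builds the outer cage, measured 27.9, 27.4 and 25.3 FPKM at PD14, 31.5, 29.1 and 27.8 at PD15 and 30.1, 31.6 and 30.8 at PD16. The PD16 libraries again lay above those of PD14, with a log2 change of 0.19 (SE 0.0627, limma adjusted p = 0.110). Sec23b, the less abundant Sec23 paralog, measured 11.4, 9.28 and 10.3 FPKM at PD14, 11.7, 10.4 and 12.9 at PD15 and 13.0, 12.5 and 11.3 at PD16. For this gene PD14 and PD16 overlapped narrowly, and PD15 overlapped both days. The log2 change to PD16 was 0.23 (SE 0.0932, limma adjusted p = 0.178). The remaining COPII members had changes between -0.02 (Sar1b) and 0.14 (Sec13 and Sec24b). Sec16a, the scaffold of ER exit sites, was at 0.08, and the outer coat subunit Sec13 had a 95% interval from -0.08 to 0.37.

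Changes in the COPI coat went in both directions. Of its 9 genes, 6 had a higher and 3 a lower mean at PD16 than at PD14, and the median log2 change was 0.02. It was -0.0082 when FPKM totals were made equal, -0.0035 without PD14 replicate 2 and 0.08 without PD16 replicate 3. Copz2, which encodes a zeta subunit of coatomer (chr11:96849870-96861203, plus strand), was at 16.9, 16.8 and 18.8 FPKM at PD14, at 14.4, 14.8 and 14.0 at PD15 and at 13.5, 15.2 and 13.5 at PD16. All libraries of both later days were below every PD14 library, and PD15 and PD16 overlapped. Its log2 change was -0.26 to PD15 (SE 0.0660, limma adjusted p = 0.118) and -0.30 to PD16 (SE 0.0660, limma adjusted p = 0.0409). The call at PD16 was lost when any of the 3 PD14 libraries, PD15 replicate 1 or 2, or PD16 replicate 1 or 3 was left out, and the adjusted p without a library ran from 0.0411 to 0.134.

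The paralog Copz1 encodes the major zeta subunit (chr15:103272714-103299868, plus strand). It was at 73.7, 69.7 and 78.1 FPKM at PD14, at 72.1, 71.4 and 78.7 at PD15 and at 79.0, 77.4 and 68.0 at PD16. These days overlapped completely, with a log2 change to PD16 of 0.02 (95% interval from -0.16 to 0.19). Copz2 took 19.2% ± 0.421 (SD, n = 3) of the summed zeta FPKM at PD14, 16.3% ± 1.07 at PD15 and 15.9% ± 1.14 at PD16. Every PD14 library had a larger Copz2 share than every library of the later days.

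Both zeta genes host a microRNA in an intron, since neither hairpin shares an exon base with its host. The mature 3p sequences are shown because the hosts differed in their course while the 3p arms share a seed. The 5p arms have different seeds and are not shown. The sequences are from RefSeq (GRCm38.p6, plus strand in both cases), and capitals mark the seed, bases 2 to 8.
mmu-miR-148b-3p, in Copz1, chr15:103285185-103285206: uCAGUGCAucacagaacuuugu
mmu-miR-152-3p, in Copz2, chr11:96850439-96850459: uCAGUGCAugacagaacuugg

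The gene of the former, Mir148b, was listed at 0 in all 9 libraries. Mir152 was listed at 0 in 8 of 9 and at 0.576 FPKM in PD15 replicate 2. The library kit was not one for small RNA, and mature microRNAs were not measured.

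Copa, the alpha subunit of coatomer (chr1:172082529-172122330, plus strand), was at 46.3, 44.2 and 44.2 FPKM at PD14, at 50.5, 47.9 and 47.8 at PD15 and at 50.4, 51.2 and 49.7 at PD16. All libraries of PD15 and PD16 were above those of PD14. The log2 change was 0.12 to PD15 (limma adjusted p = 0.333) and 0.17 to PD16 (SE 0.0509, limma adjusted p = 0.0957).

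Copb1, the beta subunit, measured 33.3, 31.4 and 34.2 FPKM at PD14, 32.7, 32.1 and 37.4 at PD15 and 42, 36.4 and 35.2 at PD16. Its PD16 libraries did not overlap with PD14, but they spread widely, and the log2 change was 0.19 (SE 0.0830, limma adjusted p = 0.213). Without PD16 replicate 1 it was 0.11. Copg2 (-0.15) and Cope (-0.10) had lower means at PD16, both with 95% intervals that include 0. Copg2, a gamma subunit, shares 912 of its 5121 exon bases with Mest on the opposite strand. Mest was at a mean level of 14.4 FPKM, close to the 14.8 of Copg2. Whether the fragments were counted by strand is not given in the sources used here, so the Copg2 level is uncertain.

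**Figure D3:**
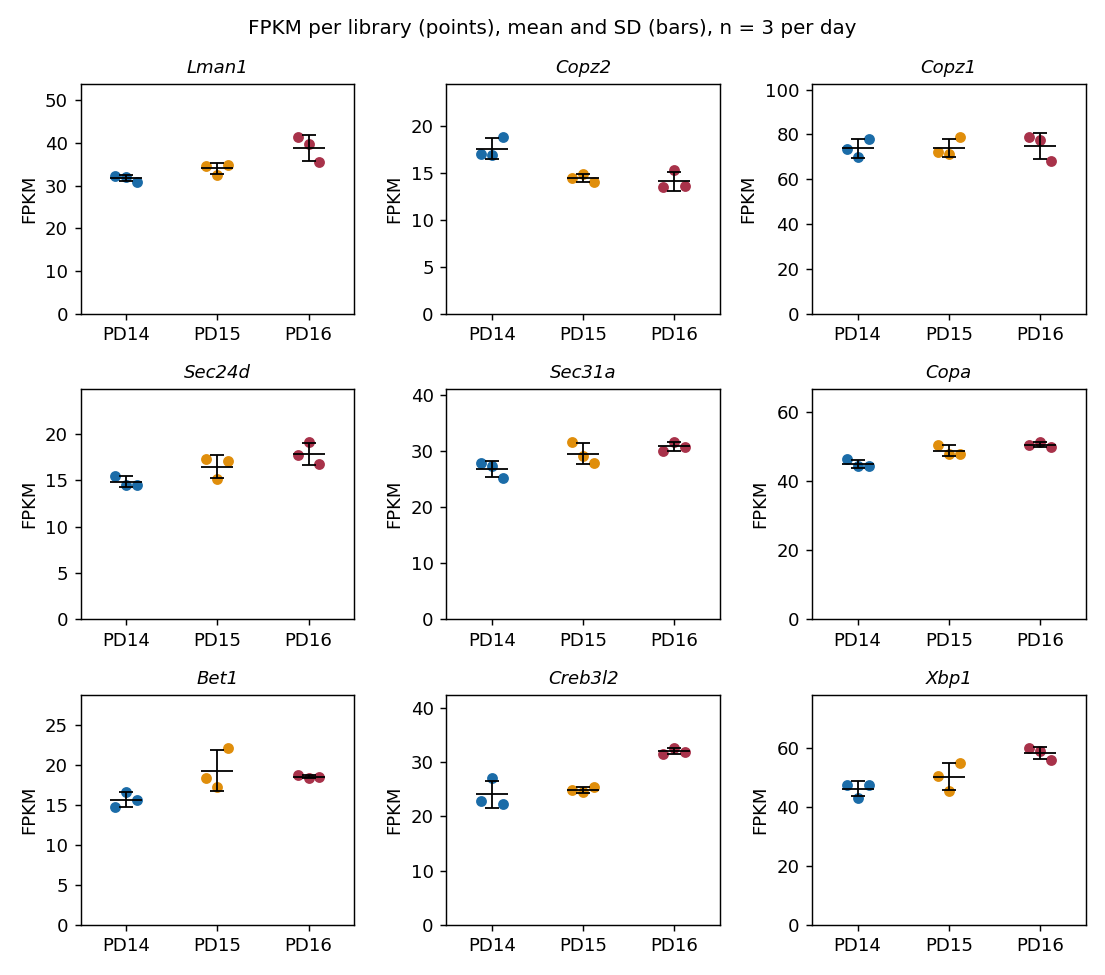
FPKM per library (points), with mean and SD (bars) of the 3 libraries of each day, for 7 members and for the transcription factor genes Creb3l2 and Xbp1. Copz2 falls from 17.5 at PD14 to 14.1 at PD16 while the Copz1 means lie between 73.8 and 74.8, and Lman1 and both factors are highest at PD16.

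The ARF GTPases had no call. Arf4 was at 77.5, 70.2 and 74.2 FPKM at PD14, at 77.2, 76.0 and 76.9 at PD15 and at 86.0, 89.3 and 75.4 at PD16. Only PD16 replicates 1 and 2 stood above the rest, and the log2 change to PD16 was 0.17 (SE 0.0731, limma adjusted p = 0.201). Arf1 was at 206, 207 and 223 FPKM at PD14, at 213, 203 and 220 at PD15 and at 237, 238 and 206 at PD16, and Arf5 at 65.1, 60.5 and 77.2, at 63.9, 62.3 and 65.2 and at 64.0, 66.0 and 57.7. Both overlapped between all days, with log2 changes to PD16 of 0.09 (95% interval from -0.09 to 0.28) for Arf1 and -0.11 (from -0.31 to 0.10) for Arf5. The value of Arf5 rested on PD14 replicate 3, without which it was -0.0071, and that of Arf1 was 0.16 without PD16 replicate 3.

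Of the cargo receptors, 8 of 10 had a higher mean at PD16 than at PD14, and their median log2 change was 0.08. It was 0.047 without PD16 replicate 1, 0.053 without PD14 replicate 2 and 0.13 without PD16 replicate 3. At PD15, 6 of 10 were higher, with a median of 0.02, which was -0.014 without PD15 replicate 3. Lman1, the mannose lectin that carries glycoproteins such as coagulation factors out of the ER, was at 32.3, 31.9 and 30.9 FPKM at PD14, at 34.6, 32.5 and 34.8 at PD15 and at 41.4, 39.7 and 35.4 at PD16. Its libraries were ordered by day without overlap between any pair of days. The log2 change was 0.10 to PD15 (SE 0.0655, limma adjusted p = 0.534) and 0.28 to PD16 (SE 0.0655, limma adjusted p = 0.0466). In the leave-one-out fits the call at PD16 held only without PD16 replicate 3, and the adjusted p without a library ran from 0.0324 to 0.146. Neither Lman1 nor Copz2 was called without the filter on low values, without the intensity trend, with only PD14 and PD16 in the fit or with equal FPKM totals.

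Mcfd2, the partner protein of Lman1 in the same receptor, was at 43.5, 40.3 and 43.0 FPKM at PD14, at 42.2, 41.9 and 45.7 at PD15 and at 48.1, 40.3 and 40.4 at PD16. Its days overlapped, and the log2 change to PD16 was 0.02 (95% interval from -0.16 to 0.19). It is given as the partner of Lman1 and was chosen after its values were seen. Lman2, a related lectin, measured 48.0, 45.3 and 49.3 FPKM at PD14, 51.2, 46.1 and 49.9 at PD15 and 54.5, 56.2 and 47.9 at PD16. Tmed2, a p24 receptor found in both coats' vesicles, measured 46.2, 49.0 and 51.8, then 50.5, 48.4 and 53.7, and finally 56.6, 54.8 and 49.2 FPKM. For both genes PD16 replicate 3 lay within the PD14 range, and the log2 changes were 0.15 (SE 0.0743, limma adjusted p = 0.273) and 0.12 (SE 0.0730, limma adjusted p = 0.341). The KDEL receptors, which return escaped ER proteins in COPI vesicles, had changes of -0.02 (Kdelr1), 0.10 (Kdelr2) and -0.01 (Kdelr3), and those of Surf4, Tmed9 and Tmed10 were 0.10, 0.07 and 0.03.

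Among Golgi matrix proteins and SNAREs, 4 of 5 genes had a higher mean at PD16 (median log2 change 0.06), and 5 of 5 at PD15, with a median of 0.04, which was 0.091 without PD15 replicate 2. Bet1, a SNARE of ER to Golgi vesicles (chr6:4076899-4086972, minus strand), was at 14.7, 16.6 and 15.7 FPKM at PD14, at 18.4, 17.3 and 22.2 at PD15 and at 18.7, 18.4 and 18.5 at PD16. Both later days were above all of PD14. The log2 change was 0.28 to PD15 (SE 0.0858, limma adjusted p = 0.183) and 0.23 to PD16 (SE 0.0858, limma adjusted p = 0.152).

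Sec22b, another SNARE of this step, was at 22.1, 21.9 and 24.2 FPKM at PD14, at 22.3, 22.3 and 26.6 at PD15 and at 25.8, 25.3 and 23.8 at PD16. Gorasp2, a stacking protein of the Golgi, was at 29.1, 29.6 and 28.1, then at 31.5, 27.8 and 30.3, and at 30.0, 31.4 and 29.5 FPKM. Both overlapped between days, with log2 changes to PD16 of 0.13 (SE 0.0781, limma adjusted p = 0.351) and 0.06 (SE 0.0588, limma adjusted p = 0.552). The change of Gorasp2 was 0.039 without PD16 replicate 2. Golga2, a Golgi tether, was the member of this group with a lower mean at PD16 (-0.02).

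The libraries of a day did not move together in every role group. The mean deviation of all 38 members from their 9-library mean, in log2(FPKM + 1), was -0.02, -0.07 and -0.02 at PD14, -0.0038, -0.06 and 0.04 at PD15 and 0.08, 0.07 and -0.03 at PD16. PD16 replicate 3 thus lay within the PD14 range. It did so for cargo receptors (-0.06) and for the ARF GTPases (-0.09, against 0.09 and 0.12 in the other PD16 libraries), and it lay below that range for the COPI coat (-0.07). In the COPII coat (0.03, against -0.09 to -0.04 at PD14) and in Golgi matrix proteins and SNAREs (0.03, against -0.07 to -0.05) it was above all PD14 libraries. The members together made up 0.530%, 0.528% and 0.520% of the FPKM total at PD14, 0.542%, 0.524% and 0.516% at PD15 and 0.545%, 0.557% and 0.535% at PD16. By this share, all PD16 libraries were above all PD14 libraries, and PD15 overlapped both days. Taken by role group, the shares of PD16 lay above those of PD14 without overlap in the COPII coat alone. In every other role group the shares of PD14 and PD16 overlapped.

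**Figure D4:**
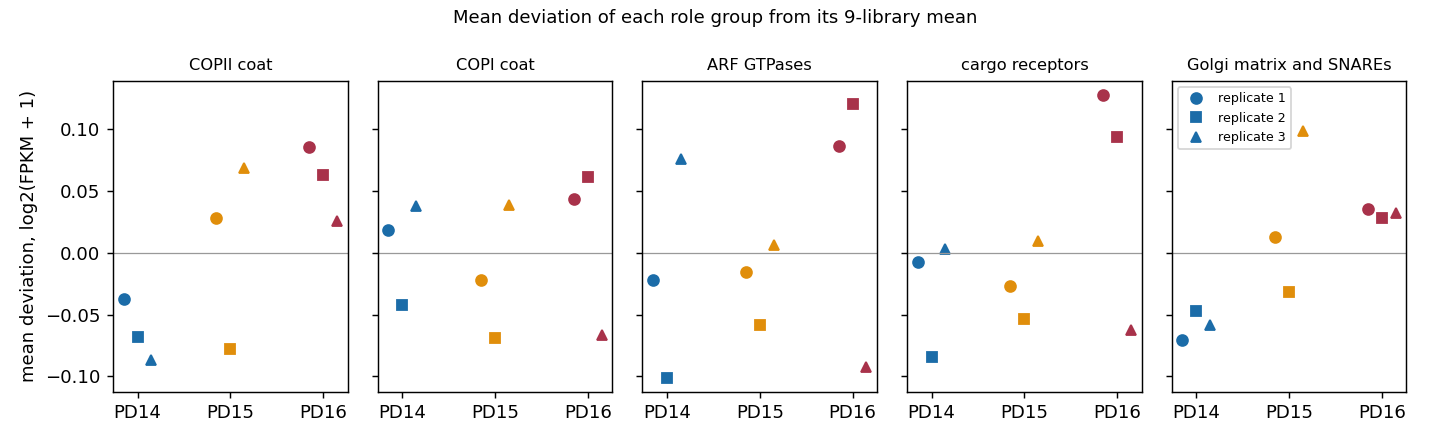
Mean deviation of each role group from its 9-library mean in log2(FPKM + 1), with 1 point per library, colours for the days and shapes for the replicates. In the COPII coat the PD16 points lie above the PD14 points, whereas in the COPI coat and the cargo receptors PD16 replicate 3 (triangle) lies at -0.07 and -0.06, apart from the other PD16 libraries.

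Shares of paralogs shifted by a few percentage points at most. In 5 of the 7 paralog sets, at least 1 paralog had a share at PD16 that did not overlap with PD14. As a scale for this, the levels of 15% of all genes were higher and those of 13.5% lower without overlap, and each set offers several shares. Sec23b took 26.9% ± 1.03 (SD, n = 3) of the summed Sec23 FPKM at PD14, 28.3% ± 0.430 at PD15 and 29.2% ± 0.632 at PD16, and each later library was above every PD14 library. In the Sec24 set, Sec24c took the largest share, 49.9% ± 0.382 at PD14 and 47.7% ± 0.797 at PD16, which did not overlap. Sec24d took 22.8% ± 1.26 and 24.9% ± 1.68, which did. Arf5 took 19.1% ± 1.39 of the sum of Arf1, Arf4 and Arf5 at PD14 and 16.8% ± 0.256 at PD16. Arf4 took 20.9% ± 1.20 and 22.4% ± 0.285. Neither share overlapped, although the highest PD14 and the lowest PD16 share of Arf4 were both 22.2%. Arf2, Arf3 and Arf6, at mean levels of 24.1, 51.1 and 29.5 FPKM, were not members and are not in this sum. Kdelr2 took 41.5% ± 0.709 of the KDEL receptor sum at PD14 and 43.4% ± 0.539 at PD16, without overlap. The Sar1 and Copg shares overlapped between days. These shares are descriptions and were not tested.

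**Figure D5:**
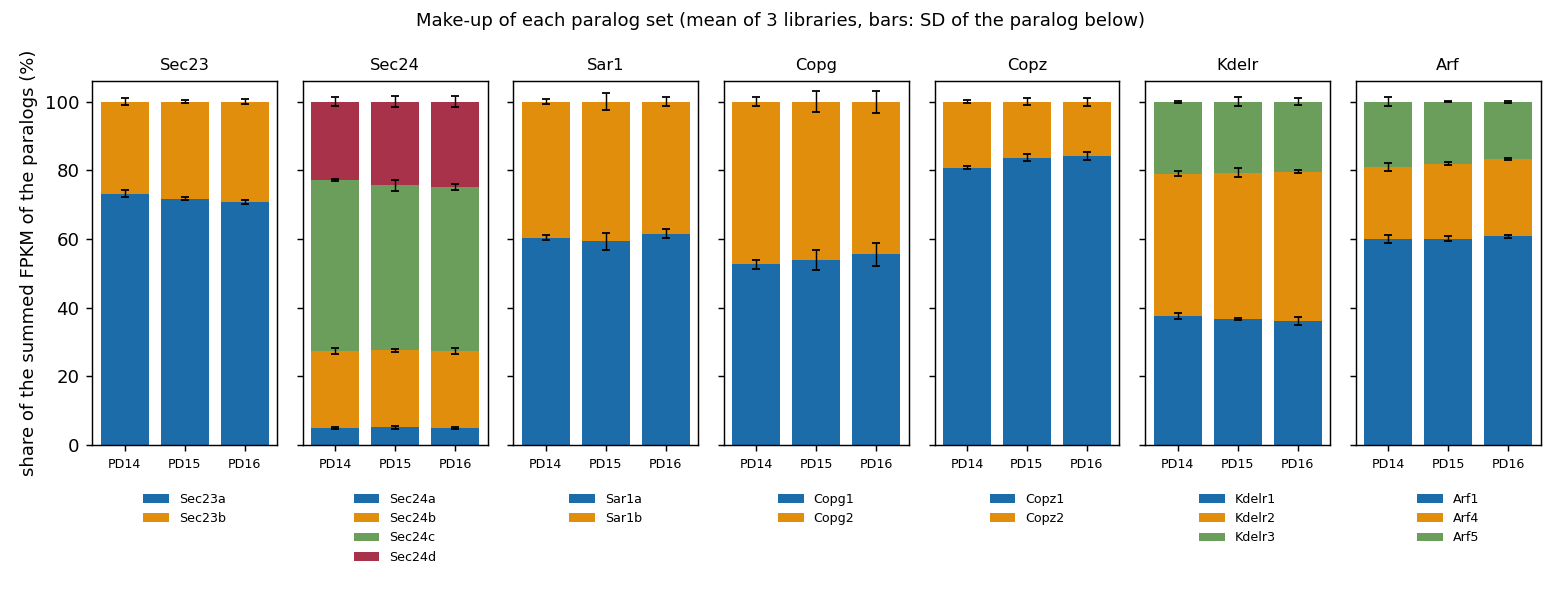
Share of the summed FPKM of each paralog set taken by each paralog on each day (stacked bars, mean of 3 libraries, error bars the SD of the segment below). The Copz2 segment shrinks from 19.2% at PD14 to 15.9% at PD16, and the Sec23b segment grows from 26.9% to 29.2%.

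Other genes of the pathway were taken from lists of accessory factors. From PD14 to PD16, 7 of 9 tested COPII accessory genes had a higher mean, 7 of 15 COPI accessory genes, 13 of 18 other cargo receptors and 14 of 24 other tethers and SNAREs, where 52.2% of all genes were higher. None of these genes passed an adjusted p of 0.05 by limma, beside 4.25% of all genes. Median log2 changes were 0.05, -0.0016, 0.05 and 0.02. At an unadjusted p under 0.05 there were 1, 5, 2 and 1 genes, compared with 22.8% of all genes.

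Among 5 transcription factors known for control of coat genes, 3 had a higher and 2 a lower mean at PD16 than at PD14, with a median change of 0.02 on the log2 scale, and 2 were called, beside 4.25% of all genes. Creb3l2, an ER membrane-bound factor that activates Sec23a in cartilage, was at 22.9, 27.0 and 22.3 FPKM at PD14, at 24.9, 24.4 and 25.4 at PD15 and at 31.5, 32.7 and 31.9 at PD16. All PD16 libraries were above all others, with a log2 change from PD14 of 0.40 (SE 0.0712, limma adjusted p = 0.0223). Xbp1, a factor of the unfolded protein response, was at 47.6, 43.2 and 47.6 FPKM at PD14, at 50.6, 45.5 and 55.0 at PD15 and at 60.2, 59.1 and 56.1 at PD16. It too was highest at PD16 without overlap, with a log2 change from PD14 of 0.34 (SE 0.0770, limma adjusted p = 0.0449). Under the alternatives, which were tried for these genes after the calls had been seen, the adjusted p by limma ran from 0.0131 to 0.0799 for Creb3l2 and from 0.0319 to 0.139 for Xbp1. The call of Creb3l2 was lost in 8 of 18, among them those without PD14 replicate 1 or 3 and without PD16 replicate 1 or 2, and that of Xbp1 in 11 of 18, among them those without any 1 of the PD14 or PD16 libraries and without PD15 replicate 1. The others of the list were not called. Creb3 had a log2 change of -0.12 (95% interval from -0.35 to 0.10), Creb3l1 of -0.15 (from -0.33 to 0.03) and Atf6 of 0.02 (from -0.09 to 0.14).

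The changes of members with and without the UPR element were set side by side, without a test. Of the 7 members with the element, 6 had a higher mean at PD16 than at PD14. Their median log2 change was 0.09, with a range from -0.01 (Kdelr3) to 0.25 (Sec24d). Of the 27 without it, 20 were higher, with a median of 0.07 and a range from -0.30 (Copz2) to 0.23 (Sec23b). From PD15 to PD16, 7 of 7 with the element and 20 of 27 without it were higher, with medians of 0.07 and 0.05. Sec23a, whose element is shown above, had a log2 change of 0.08 (95% interval from -0.10 to 0.27) and Copb2 of 0.12 (from -0.12 to 0.35).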

How the data were processed

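Whole ovaries of Kunming mice at PD14, PD15 and PD16 were covered, with 3 libraries a day grouped by the age label. Per the labels, 1 µg of total RNA extracted with Trizol entered the NEBNext Ultra RNA kit. The authors deposited FPKM, in 1 table per library. The submitters' processing notes name HISAT2 2.0.5 and mm10. The counting tool, its annotation and its use of strand are not given in the sources used here. FPKM was used as deposited. Of the low values, 94.9% to 95.3% were whole multiples of 1 fragment (tolerance 0.05) by GENCODE M21 exon lengths, which gave the depth. No 2 libraries were identical.

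limma 3.58.1 (R 4.3.3) with an intensity trend was fitted to log2(FPKM + 1) of 15495 genes over all 9 libraries, with Benjamini-Hochberg adjustment over all genes tested. Fold changes are on this scale and understate those of low genes. Other steps used Python 3.11.15, pandas 2.3.3, NumPy 2.4.6 and Matplotlib 3.10.9. The fit was tested on simulated data. Exact permutation tests were run for 15 members, chosen by the rule below, and their p-values are unadjusted. Sequences came from RefSeq (GRCm38.p6), coordinates of genes from GENCODE M21.

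Members with an adjusted p under 0.05, and the 3 members per role group with the largest change from PD14 to PD16, are given in full. Other pathway genes were to be named where called. The members and lists were chosen with earlier results of these data known. The alternatives tried changed the pseudocount, the filter, the scaling or the limma settings, blocked on replicate number, fitted only the days compared, or left out each library.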

Additional observations from a re-analysis of the deposited data

How the results depend on the processing

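Of the counts of members called, those of PD15 against PD14, PD16 against PD15 and the 3 days together stayed at 0 under all alternatives. The 2 calls at PD16 against PD14, Lman1 and Copz2, were kept under pseudocounts of 0.1 and 0.5, median-ratio scaling and robust moderation. The count was 0 without a filter on low values, without the trend, with only the days compared, with equal FPKM totals and with the replicate block, and it ran from 0 to 1 when single libraries were left out. Over all genes, these settings gave 172, 594, 323, 417 and 227 calls in place of 659, and the leave-one-out fits 92 to 660. Where an alternative removed libraries, fewer samples entered the fit, and otherwise the cause was not tested.

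Exact permutation of the F statistic over all 280 groupings was run for the 15 members given in full. They had been picked for large changes in the same libraries, so the values are no independent evidence. The unadjusted exact p ran from 0.00357 (Lman1, the smallest possible) to 0.664 (Arf5), and each of the 15 stayed on the side of 0.05 that the unadjusted limma F test gave.

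The replicate numbers did not pair the libraries. Correlations of the deviations of same-numbered libraries ran from -0.214 to 0.159. The replicate block is therefore given only here.

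No log2 change of the 15 members given in full turned its direction, but leaving out a library moved 4 of them by over 1.5 times. Arf5 was at -0.0071 without PD14 replicate 3 and -0.049 without PD16 replicate 3 (-0.18 without PD14 replicate 2), Arf1 at 0.061 and 0.059 without PD16 replicate 1 or 2 and 0.16 without replicate 3, Copb1 at 0.11 without PD16 replicate 1 and Gorasp2 at 0.039 without PD16 replicate 2. Medians of role groups moved by more than the spread between libraries in leave-one-out fits alone. That of the COPII coat at PD15 ran from 0.041 to 0.14 (highest without PD15 replicate 2), that of Golgi matrix proteins and SNAREs at PD15 from 0.032 to 0.091 (likewise), and that of the COPI coat at PD16 from -0.0035 to 0.083 (highest without PD16 replicate 3). Medians near 0 also changed sign. Those at PD15 ran from -0.014 to 0.042 for cargo receptors, from -0.033 to 0.041 for the COPI coat and from -0.026 to 0.037 for ARF GTPases. At PD16, the medians ran from 0.047 (without PD16 replicate 1) to 0.13 (without PD16 replicate 3) for cargo receptors, and from 0.059 (without PD16 replicate 2) to 0.16 (without PD16 replicate 3) for ARF GTPases. Depth limited the members little, with a counting error of at most 3.89% of a level.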

Other observations

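Besides Sec24a and Sar1b, further members start close to a gene on the other strand. Cope and Ddx49, an RNA helicase gene, start 29 bases apart and were at 29.1 and 11.6 FPKM as means of all libraries. Arcn1, the delta subunit of coatomer, and Ift46, an intraflagellar transport gene, start 63 bases apart and were at 21.9 and 11.3 FPKM. Surf4 and Stkld1 start 119 bases apart and were at 88.0 and 0.267 FPKM. Members also overlap exons of genes on the opposite strand. Among them, Copa shares 195 of 9427 exon bases with Ncstn (37.2 FPKM) and Arf4 shares 527 of 3603 with Pde12 (3.16 FPKM). Arf5 shares 313 of 1907 with Gcc1 (6.48 FPKM), and Gorasp2 shares 230 of 4145 with Tlk1 (14.4 FPKM).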
